A study of Homo sapiens with 4 samples.

Results

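The 44 genes described here encode proteins that dock, prime and fuse secretory vesicles, or that sit in the membrane of synaptic vesicles. They were taken by name, as the rows whose gene identifier carries 1 of the 44 symbols in GENCODE 29, and all 44 were found among the 58174 genes in the deposited tables. The list holds 15 synaptotagmins, 3 members of the SNAP25 family, 4 syntaxins with the syntaxin partner STXBP2, 5 vesicle-associated membrane proteins (VAMPs), 3 synapsins, synaptophysin with 2 synaptogyrins, 3 SV2 proteins, 5 genes of vesicle priming and 2 complexins.

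RNA was measured by sequencing in 293FT cells, an immortal line of embryonic kidney origin that grows fast and expresses the large T antigen of SV40. The labels name a group of 2 libraries with wild-type NIPBL (NIPBLwt) and a group of 2 libraries with mutant NIPBL (NIPBLmut), all from cells kept in the same serum-containing medium with no further treatment. NIPBL loads the cohesin ring onto chromosomes, and heterozygous mutations in it cause Cornelia de Lange syndrome. The kind of mutation, the number of clones behind each group and whether replicates were separate cultures are nowhere stated in the labels, so the p-values measure only the spread between these libraries, which may be technical.

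In neurons and secretory cells, a vesicle fuses when a VAMP in its membrane zips together with a syntaxin and a SNAP25-type protein in the target membrane to form a SNARE complex. Synaptotagmins carry a pair of C2 domains, and those that bind calcium trigger the last step of fusion. RIM and UNC13 proteins prime docked vesicles, complexins hold the assembled complex ready, and synapsins, synaptophysin, synaptogyrins and SV2 proteins belong to the vesicle itself. Cells without synapses use broadly expressed relatives of the same families, such as SNAP23, STX4 and VAMP3, for constitutive secretion and endosome traffic.

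Expected count totals ran from 31545743 to 33161120 per library, and 1 count was worth 0.0287 to 0.0335 CPM, the count relative to the library's scaled total. The NIPBLwt pair differed more (chi-square per gene 47.2) than the NIPBLmut pair (4.0), and correlations of log2 CPM were 0.981 and 0.992 within groups and 0.955 to 0.971 between groups. NIPBL itself was at 41.8 and 44.5 CPM in NIPBLwt and at 61.0 and 62.0 CPM in NIPBLmut, which does not check the mutation because the labels do not say what it is. Summed levels of neuron markers were 74.0 and 66.7 TPM (a level corrected for transcript length and library size) in NIPBLwt against 48.0 and 41.4 in NIPBLmut, and those of neuroendocrine markers 48.4 and 33.7 against 72.2 and 75.8. The neuroendocrine sum is carried by CPE, which was not called (46.7 and 31.8 TPM against 61.2 and 64.9). The neuron sum is carried by NEFL and NEFM, whereas 6 of the 8 tested neuron markers had positive log2 fold changes, with a median of 1.31. DCX, STMN2 and RBFOX3 passed the low-count filter (cut 0.309 CPM) only through their mutant libraries, so they could enter that median only as high. The rest gave 2.33 (MAP2), 0.28 (GAP43), 0.02 (TUBB3), -0.58 (NEFL) and -5.98 (NEFM). KRT8, KRT18, VIM and CDH2 of the list for the parent kidney line were at 26.7 TPM or more in every library, while the kidney developmental gene PAX2 was at 0.13 to 0.41 TPM. Of the 9 genes of that list, KRT8 was called higher (log2 0.83) and VIM (-0.60) and LIN28B (-1.20) lower.

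4 of the 44 genes were higher in the mutant libraries: the synaptotagmins SYT9, SYT13 and SYT4, and the SNARE gene VAMP8. None was called lower by edgeR, where 2 had an unadjusted p under 0.05 in that direction, while DESeq2 called 9 higher and 1 lower (VAMP3), against 6.44% and 5.84% of 19138 genes. SYT1, SYT11, SYT12, RIMS2 and CPLX2 were the 5 that DESeq2 added to the higher calls. The test was edgeR's quasi-likelihood test with Benjamini-Hochberg adjustment over 18984 genes, and a gene described as called, with no other tool or setting named, had an adjusted p under 0.05 in it. Of the 44 genes, 42 passed the filter on low counts, and the 4 called are 9.52% of these, where 3.71% of all tested genes were called higher and 2.1% lower. The choice of genes was made with results of these data known, so this share is a description and not a test of the list. Over all tested genes, 704 were called higher and 399 lower, and with total counts in place of TMM scaling 1112 and 274.

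Most of the other genes stood on the same side by less. The log2 fold change of NIPBLmut over NIPBLwt was positive for 32 of the 42 tested genes and negative for 10, with a median of 0.33 against -0.01 over all tested genes. At an unadjusted p under 0.05, 18 genes were higher and 2 lower (VAMP3 and UNC13B), where the same limit took in 15.9% of all tested genes as higher and 13.8% as lower. In 28 of the 42 (66.7%) the 2 libraries of one group lay wholly above those of the other, close to the 63.2% of all tested genes for which this was so.

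The filter lets a gene in through either group. SYT4, SYT5, SV2B and CPLX2 passed only through their mutant libraries and RAB3A only through its wild-type libraries. The other 37 passed in both groups; 3 of them were called higher and their median log2 fold change was 0.30, against 2.84% called higher and a median of -0.04 over the 16576 genes that passed in both groups. SYN1, with 1 and 9 counts in NIPBLwt and 9 and 16 in NIPBLmut, and SV2C, with 1 and 2 against 2 and 0, were not tested.

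**Figure D1:**
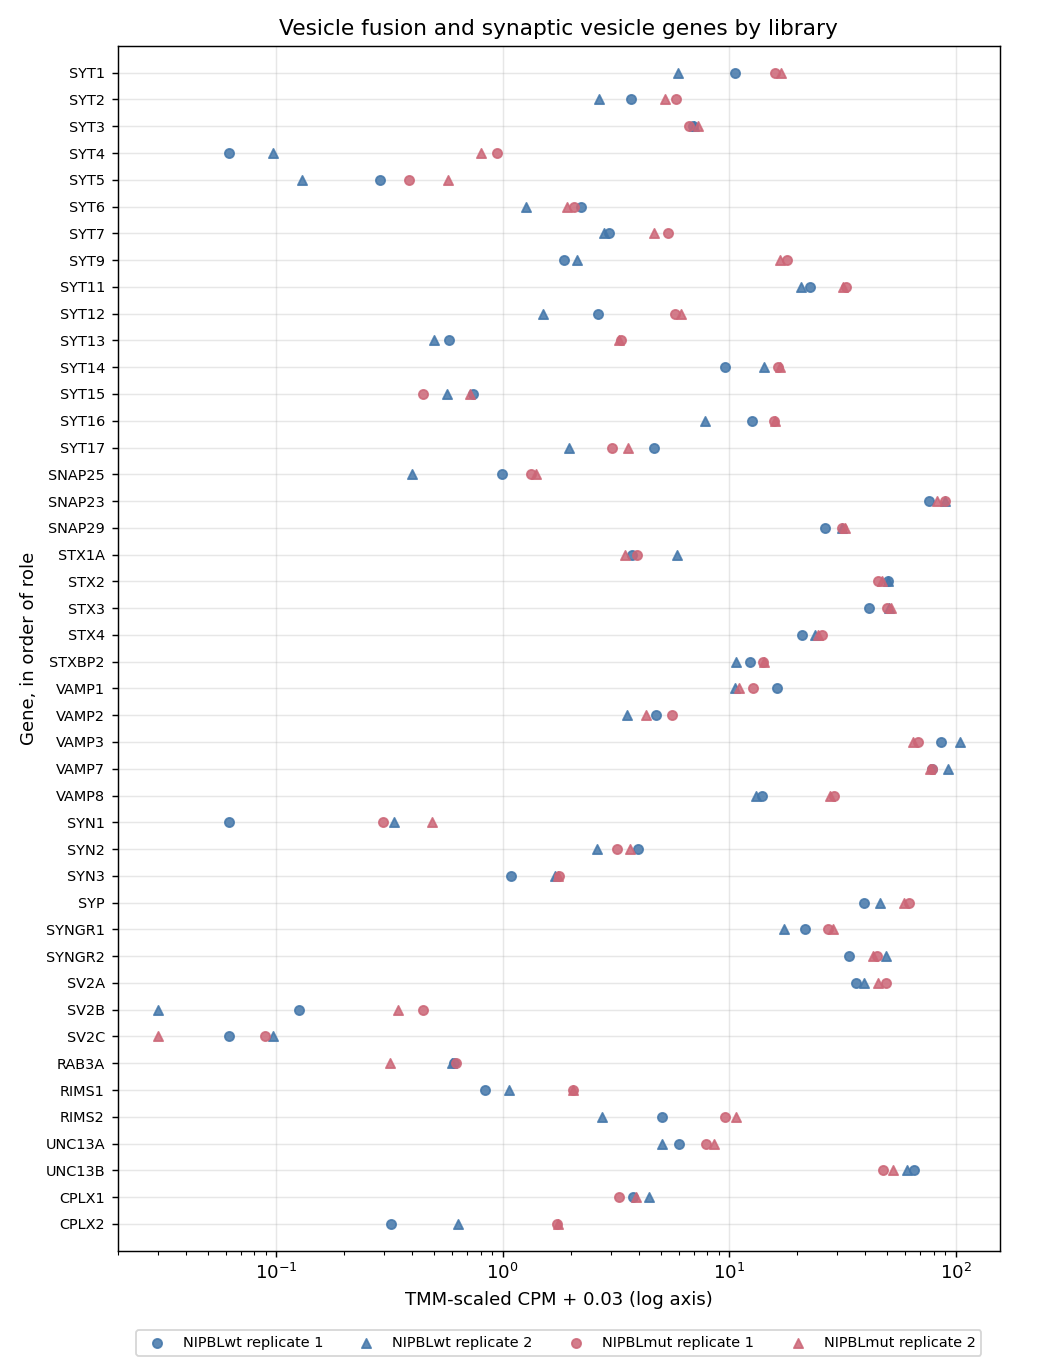
Scaled CPM of each of the 44 genes (log axis, with a small constant added so that 0 can be drawn) in the 2 NIPBLwt libraries (blue) and the 2 NIPBLmut libraries (red), circles for replicate 1 and triangles for replicate 2, in order of role. The mutant points of SYT9 lie at 16.7 and 18.0 CPM, far from the wild-type points at 1.84 and 2.11 CPM, while those of SNAP23, VAMP7 and STX3 overlap.

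SYT9 is a calcium-binding synaptotagmin of the same branch as SYT1 and SYT2, known for vesicle release in some neurons and for secretion from dense-core granules. It lies on chromosome 11 at 7238778 to 7469042 on the plus strand (ENSG00000170743; GENCODE 29, GRCh38). Its counts were 57 and 63 in NIPBLwt and 607 and 582 in NIPBLmut. At 1.97 ± 0.192 CPM in NIPBLwt against 17.3 ± 0.876 in NIPBLmut (SD, n = 2 each), both mutant libraries stood several times above both wild-type libraries. The log2 fold change was 3.13 (SE 0.18; 8.78-fold; adjusted p = 0.0086), the smallest adjusted p among the 42 tested genes.

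The 250 bases just before the RefSeq start sites (GRCh38.p14) are printed for SYT9, SYT4 and VAMP8, because these are called genes with a RefSeq promoter entry and show how far their base composition differs. The strand is that of the gene, the letters run 5′ to 3′, and capitals mark CG dinucleotides. The SYT9 stretch is chr11:7251654-7251903 (plus strand), the SYT4 stretch chr18:43277491-43277740 (minus strand) and the VAMP8 stretch chr2:85577336-85577585 (plus strand).
SYT9: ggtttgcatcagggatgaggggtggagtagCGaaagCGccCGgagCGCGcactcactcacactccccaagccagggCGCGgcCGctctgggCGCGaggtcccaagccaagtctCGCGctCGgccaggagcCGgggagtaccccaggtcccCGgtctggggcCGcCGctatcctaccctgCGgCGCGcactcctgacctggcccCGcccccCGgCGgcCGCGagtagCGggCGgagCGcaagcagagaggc
SYT4: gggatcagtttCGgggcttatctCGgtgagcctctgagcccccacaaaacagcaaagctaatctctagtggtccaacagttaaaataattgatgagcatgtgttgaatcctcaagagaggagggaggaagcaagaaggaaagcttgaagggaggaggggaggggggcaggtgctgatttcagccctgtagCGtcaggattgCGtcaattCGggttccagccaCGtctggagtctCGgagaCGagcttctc
VAMP8: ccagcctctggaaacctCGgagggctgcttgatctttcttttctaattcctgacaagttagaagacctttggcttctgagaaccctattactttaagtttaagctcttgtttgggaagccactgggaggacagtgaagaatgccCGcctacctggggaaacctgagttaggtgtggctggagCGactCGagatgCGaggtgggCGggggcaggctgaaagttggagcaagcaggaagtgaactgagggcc

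The SYT9 stretch holds 28 CG dinucleotides and 73.2% G and C, which puts it above the upper quartile of 23 CG over all 35116 such stretches. SYT4 has 8 and VAMP8 has 6, both below the median of 11 and at 52.8% G and C. The RefSeq start of SYT9 lies 13126 bases inside the gene's GENCODE span, and that of VAMP8 16024 bases inside its span. Which start site the cells used was not measured here.

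4 short motifs were searched on both strands in the windows from 250 bases before to 50 after the start, for the 36 genes of the list with a RefSeq entry, and none of them occurs in the SYT9, SYT4 or VAMP8 windows. The cyclic AMP response element TGACGTCA was in 1 gene (SYN1; 2.78%, against 2.25% of 27305 genes with an entry). TTCAGCACC, the left part of the RE1 element that the neuronal repressor REST binds, was in 2 (SYN1 and UNC13A; 5.56% against 0.469%). AGGGGGC, a piece of the CTCF motif, was in 9 (25% against 16.6%), and TATAAA in 2 (SV2B and SYT16; 5.56% against 13.99%). No motif contains another, and each match is a description of letters only. The 57 windows of the list had a median of 67.0% G and C, against 58.7% over all 35116 windows. The shares of genes with a motif were not adjusted for this or for the number of windows per gene.

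The other called synaptotagmins started from lower levels. SYT13, a synaptotagmin whose C2 domains do not bind calcium, had 17 and 14 counts in NIPBLwt and 112 and 113 in NIPBLmut (0.548 and 0.469 against 3.31 and 3.25 CPM). Its log2 fold change was 2.68 (SE 0.29; 6.41-fold; adjusted p = 0.0243), and it lies on chromosome 11 at 45240301 to 45286319 on the minus strand (ENSG00000019505). Both mutant libraries held nearly the same level, well above both wild-type libraries.

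SYT4, whose first C2 domain does not bind calcium in mammals and which is known as an activity-induced gene in neurons, was close to absent from the wild-type libraries. It had 1 and 2 counts in NIPBLwt and 31 and 27 in NIPBLmut, and lies on chromosome 18 at 43267878 to 43277650 on the minus strand (ENSG00000132872). The ratio of summed counts, scaled for library size, was 17.2, with an exact 95% interval of 5.59 to 85.6 that covers counting error only. The fitted log2 fold change was 4.0 (SE 0.55; adjusted p = 0.0301), a value that depends on the small count edgeR adds. Even in the mutant libraries SYT4 stayed under 1 CPM, and at 0.40 TPM or less it was among the 4 lowest members of the list by mean TPM.

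**Figure D2:**
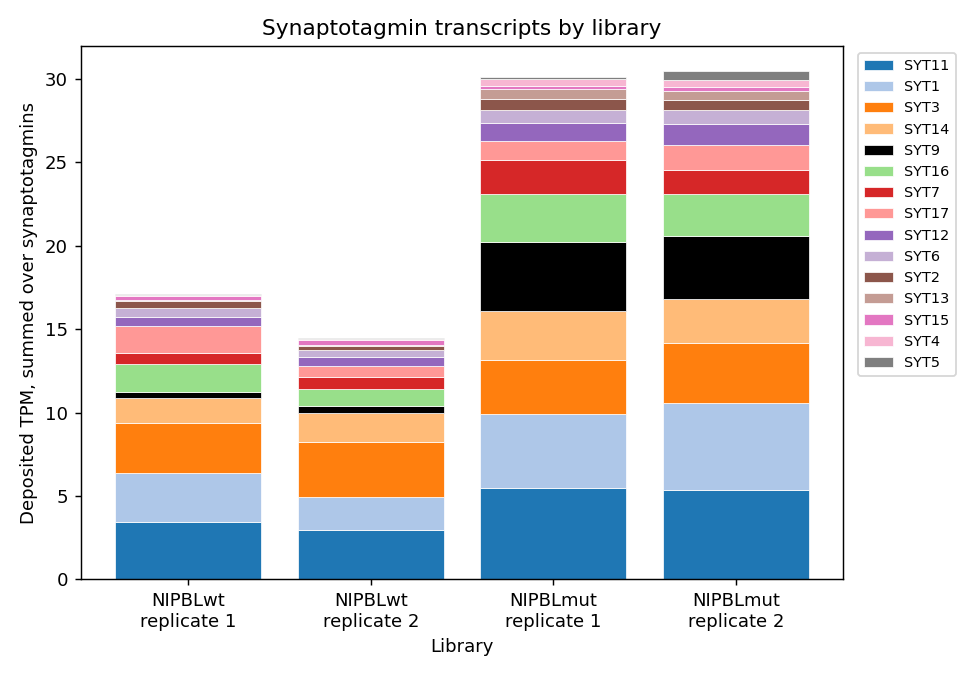
Deposited TPM of the 15 synaptotagmins, stacked in 1 bar for each of the 4 libraries, with SYT9 in black. SYT9 stood at 0.39 and 0.43 TPM in NIPBLwt and at 4.11 and 3.80 in NIPBLmut, and the bars reach 17.1 and 14.5 TPM in NIPBLwt and 30.1 and 30.5 in NIPBLmut.

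The place of SYT9 in its family changed with its level. By TPM, which allows genes to be compared per length, it ranked 10th and 9th of 15 synaptotagmins in the NIPBLwt libraries and the third in both NIPBLmut libraries. Its share of the summed synaptotagmin TPM was 2.28% and 2.97% in NIPBLwt and 13.6% and 12.5% in NIPBLmut. The summed TPM was 17.1 and 14.5 against 30.1 and 30.5, and without SYT9 it was 16.7 and 14.03 against 26.03 and 26.7. TPM values of all genes ran higher in the mutant libraries, with a median log2 difference of 0.18 on the log2(TPM + 0.1) scale, so a summed TPM holds that shift too.

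SYT1, SYT2 and SYT7, which like SYT9 bind calcium, were not called by edgeR. SYT1, the main sensor of fast synaptic release, was at 10.6 and 5.89 CPM in NIPBLwt and 15.9 and 17.0 in NIPBLmut (log2 0.99, SE 0.29; adjusted p = 0.0991), and DESeq2 called it higher (adjusted p = 0.0116). Its log2 fold change was 1.46 without NIPBLwt replicate 1 and 0.625 without NIPBLwt replicate 2. SYT2, its counterpart in fast hindbrain and neuromuscular synapses, was at 3.64 and 2.64 against 5.80 and 5.2 CPM (log2 0.81, SE 0.25; adjusted p = 0.107). PPP1R12B lies opposite 27.2% of the SYT2 exon bases and was itself at 20.7 and 16.1 against 13.5 and 13.3 CPM, so reads of the pair can be mixed unless counting used the strand, which the sources used here do not state. SYT7, a slow sensor of high calcium affinity that also acts in lysosome exocytosis, was at 2.93 and 2.78 against 5.36 and 4.63 CPM (log2 0.80, SE 0.22; adjusted p = 0.0849). For all 3 genes the mutant libraries lay above the wild-type libraries.

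Among other synaptotagmins without calcium binding in one or both C2 domains, SYT11, SYT12 and SYT16 had mutant libraries above the wild-type libraries and were not called by edgeR. DESeq2 called SYT11 and SYT12 higher (adjusted p = 0.0444 and 0.00209). SYT11, which led its family by TPM in 3 of the 4 libraries, was at 22.9 and 20.8 CPM in NIPBLwt and 32.7 and 31.9 in NIPBLmut (log2 0.56, SE 0.12; adjusted p = 0.0554). SYT12 was at 2.61 and 1.47 against 5.74 and 6.09 CPM (log2 1.53, SE 0.32; adjusted p = 0.0552). SYT16 was at 12.6 and 7.83 against 15.8 and 15.9 CPM (log2 0.63, SE 0.25; adjusted p = 0.162). In all, 11 of the 15 synaptotagmins (73.3%) had groups that did not overlap, against 63.2% of all tested genes. At an unadjusted p under 0.05, 9 of the 15 were higher and none lower, against 15.9% and 13.8% of all tested genes, and the family's median log2 fold change was 0.80. These family figures include SYT4 and SYT5 (log2 4.0 and 1.31), which passed the filter only through their mutant libraries. They were not recomputed without these genes.

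The rest of the family, SYT3, SYT5, SYT6, SYT14, SYT15 and SYT17, gave log2 fold changes from -0.17 (SYT15) to 1.31 (SYT5, with an adjusted p of 0.206). SYT3, the leading synaptotagmin by TPM in NIPBLwt replicate 2, was nearly level at 6.90 and 6.995 against 6.66 and 7.30 CPM. SYT17 was at 4.64 and 1.94 CPM in the wild-type libraries, a pair wide enough to hold both mutant values of 3.02 and 3.56. SYT15 has a near-identical copy, SYT15B, with which it can share reads, and its values are uncertain for that reason.

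**Figure D3:**
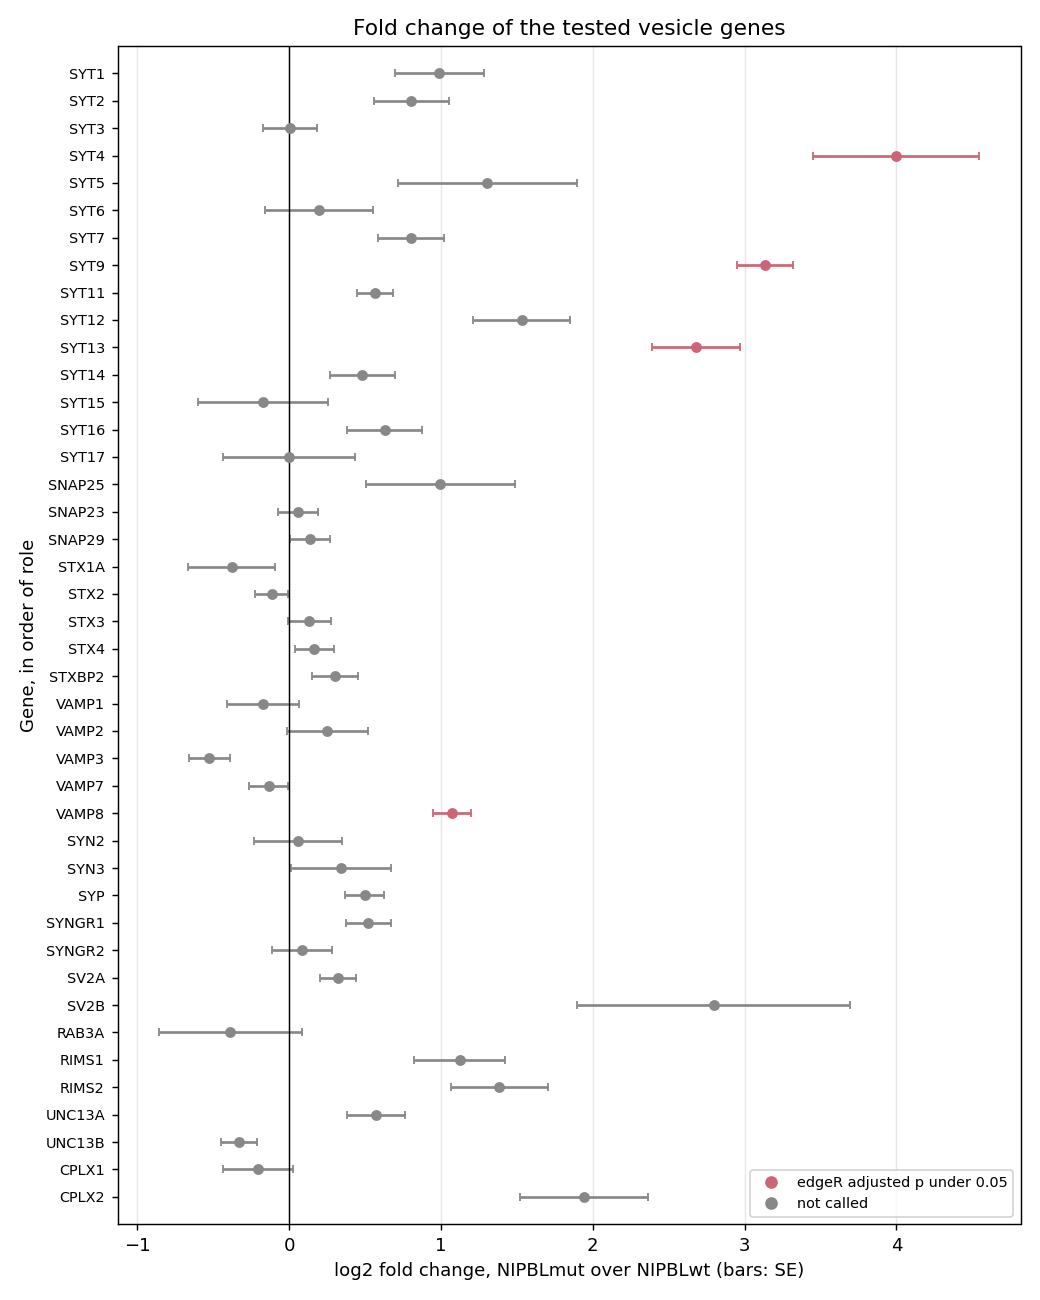
Log2 fold change of NIPBLmut over NIPBLwt for the 42 tested genes, with bars of 1 standard error, grouped by role. The 4 called genes are SYT4 (4.0), SYT9 (3.13), SYT13 (2.68) and VAMP8 (1.07), drawn in red, and grey points stand for genes that were not called.

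Among the SNARE genes, VAMP8 was the one call. VAMP8 is the VAMP of late endosomes, of autophagosome fusion with lysosomes and of granule release in platelets and exocrine cells. It was at 13.9 and 13.1 CPM in NIPBLwt and 28.9 and 28.0 in NIPBLmut, a log2 fold change of 1.07 (SE 0.12; 2.11-fold; adjusted p = 0.0257), and lies on chromosome 2 at 85561562 to 85582031 on the plus strand (ENSG00000118640). Its TPM was 15.4 and 13.7 against 35.4 and 34.3, which brought it close to VAMP3 in the mutant libraries. Without either mutant library VAMP8 was not called (adjusted p = 0.0587 without NIPBLmut replicate 1 and 0.0504 without replicate 2), with log2 fold changes of 1.04 and 1.10.

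VAMP3, the VAMP of recycling endosomes and the highest gene of the list by mean TPM (36.8 to 49.3 TPM), lay on the other side. It was at 86.5 and 104.8 CPM in NIPBLwt and 68.1 and 64.9 in NIPBLmut (log2 -0.52, SE 0.14; adjusted p = 0.0801), and DESeq2 called it lower. VAMP7, which acts in lysosome exocytosis, was at 78.5 and 92.2 against 78.8 and 76.8 CPM. VAMP1 and VAMP2, the VAMPs of synaptic vesicles, gave log2 fold changes of -0.17 and 0.25, and in both the groups overlapped.

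None of the target-membrane SNAREs passed the test. SNAP23, the broadly expressed relative of SNAP25, held 74.9% to 77.7% of the TPM of its family and was at 75.9 and 90.0 CPM in NIPBLwt and 89.9 and 83.1 in NIPBLmut (log2 0.06, SE 0.13; adjusted p = 0.792), with a sign that depended on which library was left out. SNAP25, the neuronal form, was at 0.967 and 0.368 against 1.302 and 1.379 CPM, and SNAP29, which serves intracellular fusion, gave a log2 fold change of 0.14. STX4, the plasma membrane syntaxin that pairs with SNAP23, led its group at 17.9 to 24.2 TPM, with 20.9 and 23.9 against 25.6 and 24.7 CPM (log2 0.17, SE 0.13; adjusted p = 0.429). STX1A, the neuronal syntaxin, STX2, STX3 and STXBP2 ranged from -0.38 to 0.30 on the log2 scale, with none called.

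Of the vesicle membrane proteins, SYP and SYNGR1 had mutant libraries above the wild-type libraries and SYNGR2 did not, and edgeR called none of the 3. SYP, synaptophysin, a marker protein of synaptic vesicles, was at 39.3 and 46.4 CPM in NIPBLwt and 62.0 and 59.0 in NIPBLmut (log2 0.50, SE 0.13; adjusted p = 0.0809). It was called with upper-quartile scaling (adjusted p = 0.0445), with total counts (0.0352) and on the log2(TPM + 1) scale (0.0483). SYNGR1, the synaptogyrin of neurons, was at 21.7 and 17.4 against 27.4 and 28.7 CPM (log2 0.52, SE 0.15; adjusted p = 0.0951). SYNGR2, the synaptogyrin of cells outside the nervous system, was the highest of the group at 17.7 to 28.0 TPM, and its wild-type values of 33.9 and 49.5 CPM enclosed the mutant values of 45.1 and 43.2 (log2 0.08, SE 0.20; adjusted p = 0.808; the sign turned without NIPBLwt replicate 1 and against its neighbourhood).

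SV2A, a transporter-like vesicle protein and the binding site of the antiepileptic drug levetiracetam, held nearly all of the SV2 TPM. It was at 36.5 and 39.5 CPM in NIPBLwt and 49.3 and 45.6 in NIPBLmut (log2 0.32, SE 0.12; adjusted p = 0.143). SV2B had 3 and 0 counts against 14 and 11, a scaled ratio of 7.4 with an exact 95% interval of 2.26 to 38.3 for counting error only, and an adjusted p of 0.115. Among the synapsins, which tether vesicles to actin, SYN3 was at 1.06 and 1.67 against 1.75 and 1.72 CPM (log2 0.34, SE 0.33; adjusted p = 0.527; the sign turned with transcript length as an offset), and SYN2 gave 0.06.

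The priming genes did not share a direction, and edgeR called none of them, while DESeq2 called RIMS2. UNC13B, the member of the UNC13 priming family that led the group at 9.05 to 11.8 TPM, was at 65.8 and 61.2 CPM in NIPBLwt and 47.9 and 53.1 in NIPBLmut (log2 -0.33, SE 0.12; adjusted p = 0.142). UNC13A, the main priming factor of excitatory synapses, was at 5.995 and 5.02 against 7.84 and 8.56 CPM (log2 0.57, SE 0.19; adjusted p = 0.124). The active zone scaffold genes RIMS1 and RIMS2, which bind RAB3 on the vesicle, lay above the wild-type libraries in both mutant libraries.

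RIMS1 was at 0.806 and 1.04 CPM in NIPBLwt and at 2.01 in each NIPBLmut library (log2 1.12, SE 0.30; adjusted p = 0.0813). RIMS2 was at 5.03 and 2.71 against 9.56 and 10.7 CPM (log2 1.38, SE 0.32; adjusted p = 0.0648; 0.00119 by DESeq2). RAB3A, the small GTPase of synaptic vesicles, was under 0.6 CPM throughout. Of the complexins, CPLX2 had 9 and 18 counts in NIPBLwt and 58 and 60 in NIPBLmut (log2 1.94, SE 0.42; adjusted p = 0.0580; 0.0363 by DESeq2), whereas CPLX1, the more abundant form by TPM, was at 3.74 and 4.42 against 3.23 and 3.85 CPM (log2 -0.20, SE 0.23; adjusted p = 0.593), a sign that turned with transcript length as an offset, on the TPM scales and against its neighbourhood.

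By level, 11 genes of the list averaged at least 10 TPM over the 4 libraries: SNAP23, SNAP29, STX2, STX3, STX4, VAMP3, VAMP7, VAMP8, SYP, SYNGR2 and UNC13B. VAMP8 was the one called among them, and their log2 fold changes ran from -0.52 to 1.07. 16 genes averaged under 1 TPM, 2 of them called (SYT4 and SYT13). VAMP3 and SNAP23 overlapped in their ranges over the 4 libraries (36.8 to 49.3 and 33.0 to 43.8 TPM), as did SNAP23 and VAMP7 (30.2 to 35.4 TPM), so the order of these neighbours is not separated by the spread.

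The genes around each called gene were looked at next. The nearest 25 tested protein-coding genes on each side had a median log2 fold change of 0.16 around SYT9, 0.19 around SYT13, 0.12 around SYT4 and 0.43 around VAMP8. Around SYT9, ZNF214 and NLRP14 on one side gave 0.15 and 0.01, and OLFML1 (16.4 kb away) and PPFIBP2 on the other gave 0.49 and 0.63, none of them called. Around SYT13, PRDM11 at a distance of 5.19 kb gave -0.02, TP53I11 0.63, CHST1 0.78 and SLC35C1 0.18, none of them called. Beside SYT4, PIK3C3 at 1180 kb, SETBP1 at 1403 kb and EPG5 at 2570 kb gave -0.14, -0.13 and 0.15, and CELF4 at 5702 kb gave 1.67 (adjusted p = 0.0564).

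Some neighbours of VAMP8 were also higher. GGCX at 0.015 kb gave a log2 fold change of 0.35 (adjusted p = 0.110) and MAT2A at 16.3 kb gave -0.07 (adjusted p = 0.719), neither called. VAMP5, the myobrevin gene 2.38 kb downstream, was at 0.226 and 0.134 CPM in NIPBLwt and 0.680 and 0.718 in NIPBLmut (log2 1.93, SE 0.45; adjusted p = 0.0652). RNF181, a ubiquitin ligase gene 13.7 kb away, was called (log2 0.69, SE 0.11; adjusted p = 0.0370). With the median of the neighbourhood subtracted, the log2 fold change of VAMP8 was 0.64 and it was not called, while SYT9, SYT13 and SYT4 were.

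**Figure D4:**
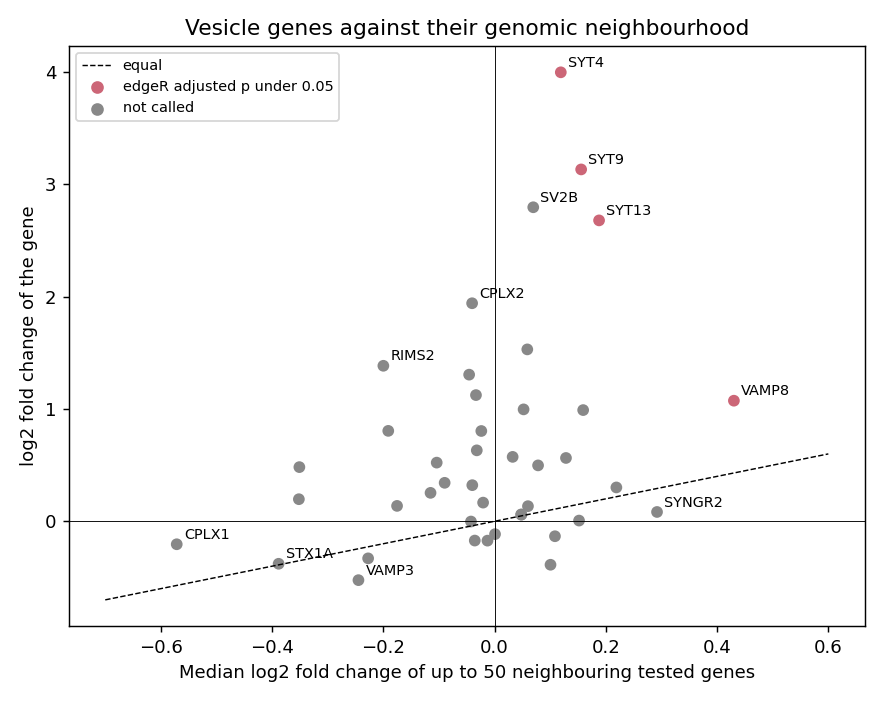
Log2 fold change of each tested gene of the list (vertical axis) against the median log2 fold change of its tested protein-coding neighbours (horizontal axis), up to 25 on each side. SYT9, SYT13 and SYT4 lie at neighbour medians of 0.12 to 0.19, and VAMP8 at 0.43.

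Overlapping genes touched few of the called members. SYT9 shares 121 of its 4727 exon bases with the antisense gene AC107884.1, which was at 0.612 and 0.167 against 1.10 and 0.919 CPM, far under SYT9 in the mutant libraries. SYT13 shares 135 bases with AC103681.1, which was at 0 in every library. The antisense partner of SYN2, TIMP4, and that of VAMP1, TAPBPL, were themselves called higher (log2 3.28 and 2.01), and their part in the values of SYN2 and VAMP1 was not tested. BUD23, opposite 17.9% of the STX1A exon bases, was at 66.5 and 89.2 against 52.2 and 53.8 CPM, far above STX1A, and its part in the STX1A values was not tested either.

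The deposited effective length of a gene moves when the mix of its transcripts moves. Of 30 genes of the list with at least 50 counts in each library, 22 differed by less than 10% between the groups' means. In 5 genes the groups moved by at least 10% without overlap: SYT7, SYT16, VAMP1 and CPLX1 were shorter in NIPBLmut and STXBP2 longer. VAMP1 went from 1844 bases in both NIPBLwt libraries to 1485 and 1617 in NIPBLmut, and CPLX1 from 1631 and 1863 to 1398 and 1503. SYT9 moved by 4.73% and VAMP8 by 0.47%. These shifts are the counting program's estimates, given as a description with no test. The share of all genes with such a shift was not computed, so they are not shown to be particular to this list.

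The rest of the exocytosis and vesicle cycle was read from 5 lists of 105 genes, of which 95 were tested. 4 were called higher (4.21%) and none lower by edgeR, where 3.71% and 2.1% of all tested genes were. At an unadjusted p under 0.05, 24 were higher and 7 lower, against 15.9% and 13.8% of all tested genes. DESeq2 called 13 of 93 higher and 2 lower (CLTA and ITSN1), against 6.44% and 5.84% of 19138 genes. STXBP6, a protein that binds SNARE complexes through a VAMP-like domain, was at 5.87 and 5.42 CPM in NIPBLwt and 11.8 and 12.5 in NIPBLmut (log2 1.11, SE 0.17; adjusted p = 0.0337). STXBP6 was not called without NIPBLmut replicate 1 (adjusted p = 0.137) or without NIPBLmut replicate 2 (adjusted p = 0.212).

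SYTL2 and BIN1, which act at other steps of the cycle, were also called. SYTL2, a synaptotagmin-like protein that links RAB27 vesicles to the plasma membrane, was at 5.22 and 3.58 CPM in NIPBLwt and 13.1 and 13.7 in NIPBLmut (log2 1.60, SE 0.23; adjusted p = 0.0322). BIN1, a membrane-curving amphiphysin of endocytosis, was at 9.61 and 6.16 against 27.5 and 29.5 CPM (log2 1.85, SE 0.23; adjusted p = 0.0289). None of the 27 docking, active zone and exocyst genes was called by edgeR. At an unadjusted p under 0.05, 7 were higher and none lower, against 15.9% and 13.8% of all tested genes. RIMBP2, among the 7, had 2 and 0 counts in NIPBLwt and passed the filter only through its mutant libraries. DESeq2 called 2 of 26 higher (EXOC3 and RAB27B), against 6.44% of 19138 genes. Of 8 vesicular transmitter transporters, edgeR tested only 2 and DESeq2 only 1, and none of these was called. Neither of the 2 had an unadjusted p under 0.05 in edgeR, and SLC17A9 had the highest mean level at 0.11 to 0.15 TPM.

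The most abundant gene of each of the other lists was not called. VTI1B, an endosomal SNARE, was at 58.7 to 63.8 TPM (log2 -0.20, SE 0.12), ESYT2, an extended synaptotagmin of contact sites between the endoplasmic reticulum and plasma membrane, at 32.6 to 39.8 TPM (log2 -0.13, SE 0.11), and EXOC7 of the exocyst at 38.1 to 57.5 TPM (log2 0.13, SE 0.19). AP2M1, the clathrin adaptor subunit that binds cargo, was at 131.8 to 234 TPM (log2 0.42, SE 0.16; adjusted p = 0.149), with a neighbour median of 0.70.

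Genes of neurons and neuroendocrine cells were given beside these values. Of 11 neuron markers, 8 were tested; RBFOX3, MAP2, DCX and STMN2 were called higher from under 0.4 CPM in NIPBLwt, and NEFM was called lower. TUBB3, GAP43 and NEFL were not called, and ELAVL3, ELAVL4 and NEFH were at 0.13 TPM or less in every library and not tested. Of 8 neuroendocrine markers, CHGB and PCSK2 were called higher, and SCG2 was not tested. CHGA, SCG3, PCSK1, CPE and INSM1 were not called, and INSM1 had a negative log2 fold change (-0.39). Of 7 fibroblast markers, LUM and PDGFRB were called higher and COL1A2 was at 0 in every library. COL1A1 and PDGFRA (log2 -0.01) were not called, and DCN and THY1 were not tested. For comparison with these marker lists, 3.71% of all tested genes were called higher and 2.1% lower. RBFOX3, DCX, STMN2 and PCSK2 passed the filter only through their mutant libraries, where they were high. In bulk RNA, more cells of a type and more RNA per cell cannot be told apart, and the part of these markers in the values of the vesicle genes was not tested.

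The calls were set against 17 other ways of processing. SYT9 was called in 17 of 17, with log2 fold changes from 1.81 to 3.31, and SYT13 in 17 of 17, from 0.54 to 2.85. SYT4 was called in the 16 that tested it, from 0.42 to 4.56, the lowest on the log2(TPM + 1) scale, which understates changes of low genes. VAMP8 was called in 14 of 17, from 0.64 to 1.26. The scale log2(TPM + 1) also gave the lowest values of SYT9 and SYT13.

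**Figure D5:**
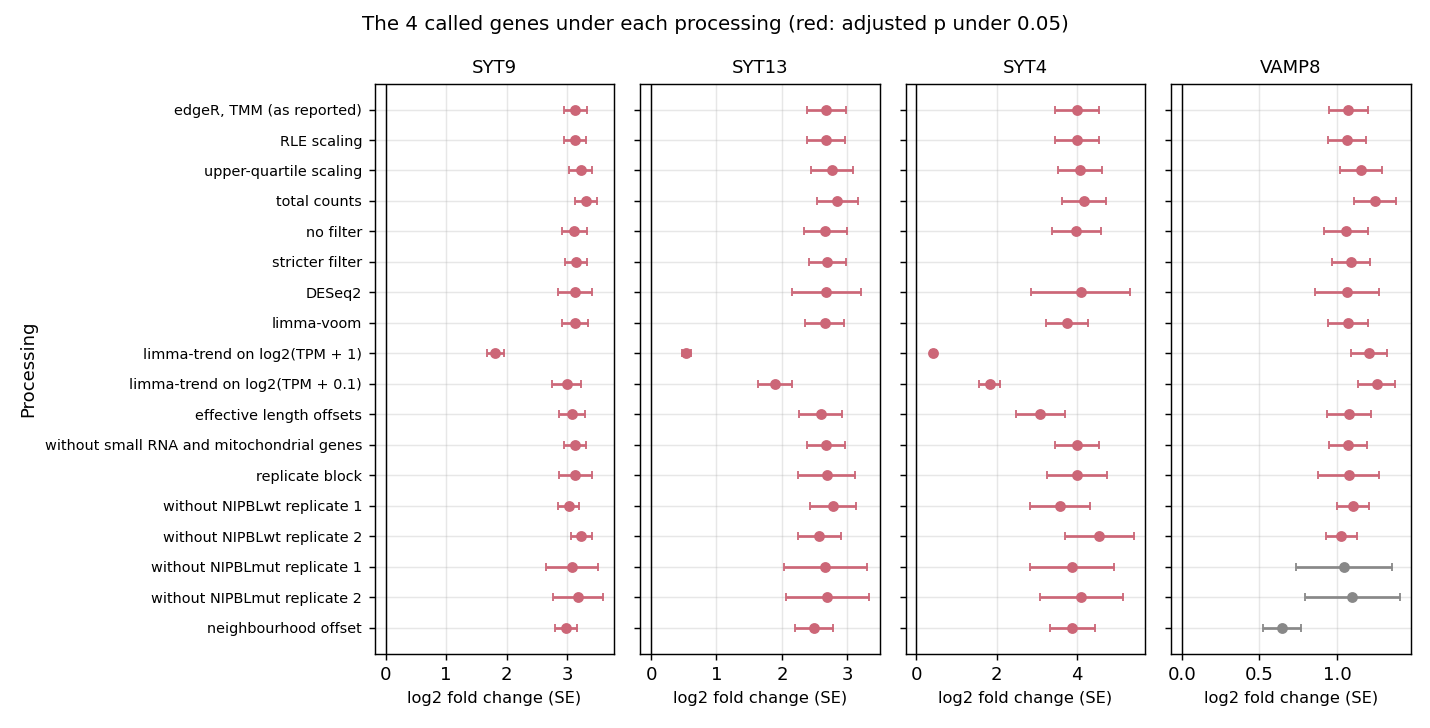
Log2 fold change with its standard error for SYT9, SYT13, SYT4 and VAMP8 (1 panel each) as reported, in the top line, and under each other way of processing, red where the adjusted p was under 0.05. SYT9 stayed between 1.81 and 3.31, and VAMP8 between 0.64 (neighbourhood median subtracted) and 1.26.

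The spread between replicates was unequal between groups for these genes as for all genes. The median absolute log2 difference between replicates was 0.324 for the tested members in NIPBLwt (0.313 over all tested genes) and 0.0958 in NIPBLmut (0.0976 over all). In NIPBLwt, 23 members were higher in replicate 1 and 19 in replicate 2, so neither replicate was the higher one throughout. Several members with wide wild-type pairs (SYT1, SYT12, SYT16, RIMS2 and CPLX2) had mutant pairs that agreed closely. Without NIPBLwt replicate 1 and without NIPBLwt replicate 2, the log2 fold change was 1.99 and 1.18 for SYT12, 1.0 and 0.33 for SYT16, 1.88 and 1.007 for RIMS2, and 1.49 and 2.55 for CPLX2.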

How the data were processed

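RNA of 4 libraries of 293FT cells was sequenced from rRNA-depleted total RNA with a directional kit, per the labels' protocols. The submitters' processing notes name STAR 2.7.3a, RSEM 1.3.1 and hg38; annotation release and strand setting are stated nowhere in them. The deposited tables give expected counts, TPM, FPKM (deposited, not used here) and effective lengths per gene. Of 58174 genes, 57836 matched GENCODE 29 by identifier. Expected counts deposited by the authors were rounded and tested with edgeR 4.0.16 (R 4.3.3; filterByExpr by group, TMM scaling, robust quasi-likelihood test), adjusted over 18984 genes; the SE is the log2 fold change over the square root of F. CPM is TMM-scaled and compares libraries; the authors' TPM compares genes. limma 3.58.1 and DESeq2 1.42.0 served as alternatives, and the edgeR step was tested on simulated data. The fit as reported has no replicate block, because no label says that the replicate numbers mark a shared batch. A fit with the block was an alternative. As a description, deviations of same-numbered libraries from their group means had a correlation of -0.0593. The genes and lists were chosen with earlier results of these data known. Full values are given for SYT9, for called members, for members with an unadjusted p under 0.05, and for the member with the highest mean TPM in each role group; from each other list, for called genes and the highest by TPM. Other genes named were chosen after their values were seen. Intervals and ratios of counts cover counting error only. 36 of the 44 genes had a RefSeq promoter entry (GRCh38.p14). 1 result among the other pathway genes is not reported here; the counts over those lists include it.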

Additional observations from a re-analysis of the deposited data

How the results depend on the processing

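Against 4 genes called higher and 0 lower, total-count scaling called 7 higher, no filter 7 and DESeq2 9, with 1 lower (VAMP3) in DESeq2. The fit with a replicate block called 9 higher (SYT1, SYT12, RIMS2, CPLX2 and SV2B joined the 4). No label says that the numbers pair the libraries, and over all genes this fit called 1470 higher against 704. Leaving out 1 library gave 3 to 24 genes called higher and 0 to 5 called lower. Without NIPBLwt replicate 1 the fit called 23 higher and 5 lower, and without NIPBLwt replicate 2 it called 24 and 4; the spread then comes from the close mutant pair alone, and 5909 and 4287 genes were called higher over all genes. Without either mutant library 3 were called, SYT9, SYT13 and SYT4. The median of 0.33 became 0.42 with upper-quartile scaling, 0.51 with total counts, 0.57 on log2(TPM + 0.1) and 0.43 with the neighbourhood subtracted. With 1 library left out it ran from 0.305 to 0.43. Over all tested genes the median was 0.08, 0.17, 0.18 and 0.01 in the former 4 settings (-0.01 as reported), and the log2(TPM + 1) and log2(TPM + 0.1) scales called 818 and 678 genes higher and 119 and 110 lower. The sign of CPLX1 turned to 0.17 on log2(TPM + 1), 0.24 on log2(TPM + 0.1), 0.071 with effective length offsets and 0.366 with the neighbourhood subtracted; SYN3 turned to -0.072 with effective length offsets. SNAP23 ran from -0.072 to 0.185 and SYNGR2 from -0.18 to 0.38 with 1 library left out, and SYNGR2 was at -0.21 with the neighbourhood subtracted. None of these was called as reported, and the cause was not tested. VAMP8 lost its call without either mutant library and with the neighbourhood subtracted (0.64); its adjusted p reached 0.0594. With 1 mutant or 1 wild-type library in a fit, that library is assumed to vary like the other group.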
